A study of Drosophila melanogaster with 4 samples.

Results

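The cap'n collar (CNC) peaks of the Drosophila melanogaster X chromosome were taken from 1 deposited ChIP-seq peak list as all rows whose sequence name is exactly X. They numbered 310 of the 1684 peaks in the list, or 18.4% (exact 95% interval 16.6 to 20.3%). The autosomal arms 2L, 2R, 3L and 3R together held 1331 peaks and served as the comparison, so that the X supplied 18.9% of the 1641 peaks on the 5 large arms. The single peak on XHet, the separately assembled X heterochromatin, was not a member. It was 526 bp long with a score of 32.85. Positions are those of FlyBase release 5, counted from 1.

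CNC belongs to the basic leucine zipper family and is the fly relative of the vertebrate NRF proteins. It binds DNA together with the small Maf protein Maf-S. Its long isoform is held in check by Keap1, and in adult flies it is known for switching on antioxidant and detoxification genes. The X is a large chromosome whose genes are not confined to sex-related roles. Females carry as many copies of the X as of each autosome, so a diploid female cell offers the antibody equal numbers of both. The dosage compensation complex, which raises transcription of the single X in males, is not assembled in females.

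The series holds 2 immunoprecipitated (ChIP) and 2 input libraries from adult females collected at 2 to 3 days of age, and the labels name no tissue. Both groups share 1 strain, labelled Y cn bw sp, and as labelled differ only in the immunoprecipitation. On the X it carries the alleles y[1] and oc[R3.2]. Its autosomes carry Gr22b[1], Gr22d[1] and cn[1] along with CG33964[R4.2], then bw[1] and sp[1], and also LysC[1] and lab[R4.2] with MstProx[1], GstD5[1] and Rh6[1]. The antibody, KW0-CNC, is a rabbit polyclonal directed at CNC. The list gives each peak a start, an end and 1 score from the authors' peak caller, and nothing for a single library. Replicate error and read depth are therefore unknown, no value here has a replicate check, and no test was made. The spread among the 4 autosomal arms stands beside each X value instead. Exact binomial intervals are given for shares and medians. They cover counting error only and treat peaks as independent, which grouped peaks are not. No gene is assigned to a peak and no base sequence is shown, because a release 5 genome was not used here.

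Most CNC peaks on the X were small in both length and score, and a few stood far above them. The median X peak was 437 bp long (95% interval 390 to 494 bp), with an interquartile range of 297 to 740 bp. The median on the autosomal arms was 446 bp. Among single arms, 3L had the shortest median, 418.5 bp, and 2R the longest, 472 bp. Lengths on the X ran from 201 to 3305 bp, and 43 peaks, or 13.9%, exceeded 1000 bp, against 14.0% on the autosomal arms. The median X score was 19.1 (95% interval 17.4 to 20.9), with an interquartile range of 13.0 to 42.5. This lay just under the lowest autosomal arm, 3L at 19.2, and the pooled autosomal median of 20.3 was inside the X interval. Scores above 100 belonged to 31 X peaks, or 10.0% (95% interval 6.90 to 13.9%), and to 11.0% of autosomal peaks. Scores above 200 belonged to 9 X peaks, or 2.90%, and to 2.93% of autosomal peaks. In median length, median score and shares of high scores, the X thus lay inside the range of the autosomal arms or within counting error of it.

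**Figure D1:**
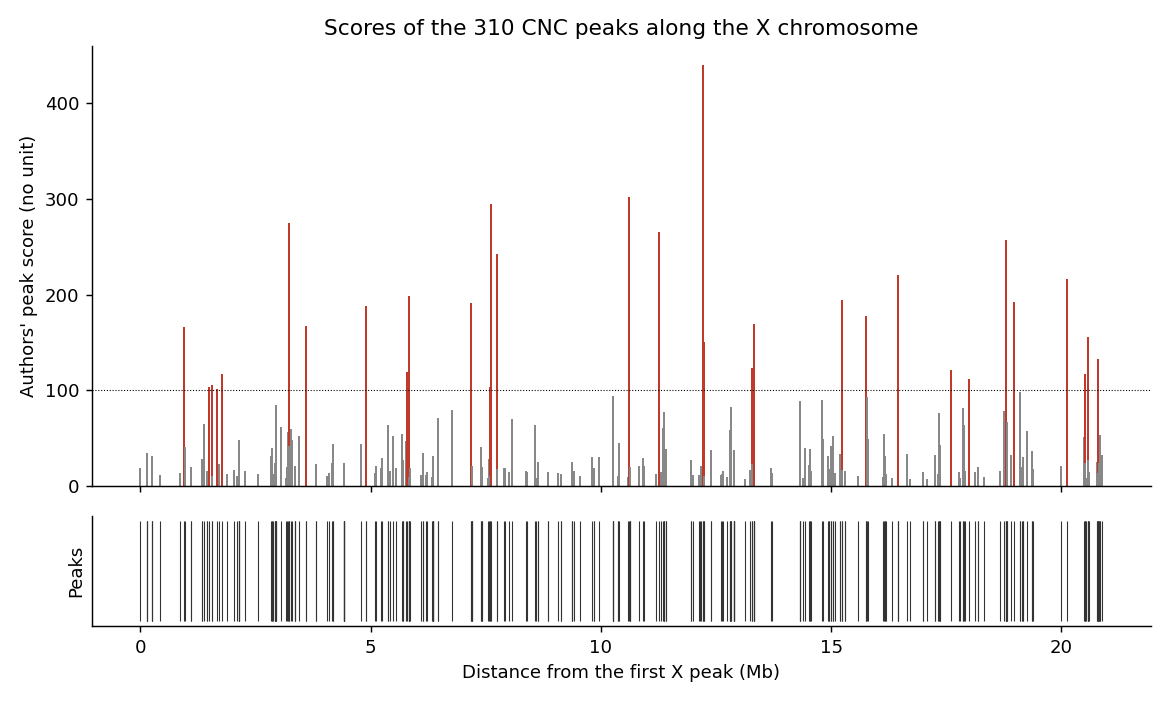
Score of each of the 310 X peaks (vertical axis, the authors' score, no unit) against its distance in Mb from the first X peak, with the same peaks as ticks below. Red lines mark the 31 peaks above the dotted line at 100. They are scattered from end to end, the tallest at 439.64 just past the middle, with the widest stretch free of red between about 7.7 and 10.6 Mb.

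The highest-scoring CNC peak on the X stood well clear of the others in score. Peaks are called strong or weak here by this score alone. A 1362 bp peak at 12629110 to 12630471 scored 439.64, the fourth highest score in the whole list, and the next highest X score was 302.18. It was no isolated site. A 1040 bp peak of score 32.78 ended 380 bp before it. Another high peak, at 12649000 to 12650142 with a score of 150.15, lay 18.5 kb further along, itself followed at 177 bp by a 244 bp peak of score 9.92. The second-ranked X peak, at 11018580 to 11020415, was 1836 bp long and belonged to a group of 4 peaks. The peak at 11657763 to 11660078, of rank 5, scored 265.77 and stood alone, with 47.1 kb of sequence free of peaks on its nearer side. The X peaks of ranks 1, 2 and 5 thus lay within 1.61 Mb of each other. This trio was picked after the positions were seen, and ranks 3 and 4 lay elsewhere, starting at 8006647 and 3634817.

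The third-ranked peak was also the longest on the X. It covered 3305 bp at 8006647 to 8009951 and scored 295.06. A peak of 1198 bp and score 103.77 lay in the same group of 3, at 8003334 to 8004531, with a weak peak of score 9.69 between them. The seventh-ranked peak followed 128 kb later, at 8137527 to 8138785, with a score of 242.17. Over the next 2.88 Mb, to the second-ranked peak, 33 peaks were listed, with a median score of 14.4, and none scored above 93.83. That was the longest stretch of the X without a score above 100. The next longest covered 1.89 Mb between 13739568 and 15634128 and held 23 peaks of at most 89.25.

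Other high peaks were spread over the rest of the chromosome. The fourth-ranked peak, at 3634817 to 3636632, scored 274.39. The sixth, at 19209208 to 19210872, scored 257.07 and sat inside 1 of the most crowded groups. Ranks 8 and 9 were a peak of score 220.39 at 16859853 to 16862110 and a peak of score 216.07 at 20527227 to 20528595. The ninth was the most isolated of the first 20, with no other peak within 137 kb on either side. Ranks 10 to 20 scored from 198.5 down to 150.15. Those at 15634129 to 15635462 (193.76), 19373341 to 19374571 (191.68) and 1360611 to 1361381 (165.63) stood alone. The others had a neighbour whose centre lay within 10 kb, and they were the peaks starting at 6235016 (198.5), 7590509 (191.43), 5310980 (187.93), 16170092 (177.52), 13737376 (169.37), 4010422 (166.93), 20987962 (155.97) and 12649000. High scores followed no single region, since 18 of the 22 bins of 1 Mb along the X held at least 1 score above 100 and none held more than 3. Among the 100 highest scores of the 5 arms, 20 were on the X, close to its 18.9% of all arm peaks.

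In numbers per bin of 1 Mb, CNC peaks in this list varied less over the X than over any autosomal arm. Counted in bins of 1 Mb from position 1, without the partly filled bins at the ends, the 20 X bins held 11 to 23 peaks with a median of 13. On the other arms the counts ran from 3 to 35 on 2L, 8 to 36 on 2R, 3 to 28 on 3L and 5 to 24 on 3R. The fullest X bin, from 6 to 7 Mb, held 23 peaks, while those from 3 to 4 and from 13 to 14 Mb held 22 each. Another bin, from 19 to 20 Mb, held 19, and the remaining 16 lay between 11 and 17. The variance of these counts divided by their mean, which averages 1 for points scattered independently, was 1.05 on the X. The value was 1.96 on 3R and 2.56 on 3L, while 2R had 3.06 and 2L had 4.25. The X had the lowest of the 5 values in each of the 9 settings examined, among them the peaks of higher score alone, close peaks joined, shifted bins and each arm without its fullest bin. Its distance from the next arm was smallest with peaks closer than 5 kb joined, at 0.69 on the X against 0.87 on 2R. With bins of 500 kb the values were 1.43 against 1.61 on 3R. Peaks of higher score came close to this, at 1.20 against 1.42 on 3R (median of the list) and 1.14 against 1.35 on 3R (upper quartile). Joining peaks within 5 kb also lowered the other arms, to 1.13 on 3R, 1.37 on 3L and 1.49 on 2L. The autosomal values of 1.96 to 4.25 thus include close groups of peaks, not only unevenness over megabases. This measure was chosen after seeing the counts, and 5 arms of 1 list give no error for it.

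**Figure D2:**
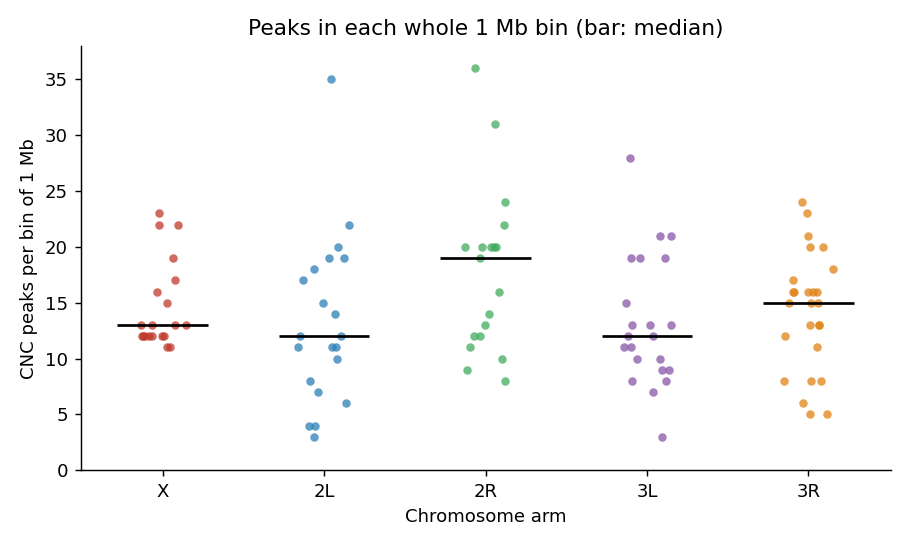
Number of CNC peaks in each whole 1 Mb bin (points, vertical axis) on each of the 5 arms, with a bar at the arm's median; points are spread sideways only for legibility. The X bins lie between 11 and 23, with no bin as empty or as full as the extremes of 2L, 2R and 3L.

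Counted again in broad stretches, the same X peaks were also evenly spread, which is no separate evidence. With the span from the first to the last X peak cut into 5 equal stretches of 4.18 Mb, these held 62, 64, 56, 64 and 64 peaks in order of position. The fullest held 1.14 times as many as the emptiest. The same ratio was 1.55 on 3L and 1.60 on 2R, and it reached 1.73 on 2L and 2.37 on 3R. Median scores of the X stretches ran from 15.9 in the middle one (95% interval 13.7 to 20.6) to 21.3 in the last (16.7 to 32.3), and these intervals overlapped. The middle stretch was also the lowest in number, in median length, at 381 bp, and in scores above 100, with 4, although it contained the strongest X peak. The second stretch had the longest median length, at 504 bp. In the last stretch 8 of 64 peaks scored above 100. The first X peak, a 332 bp peak of score 18.18, began only at 403513, later than the first peaks of 2L, 3L and 3R, which began between 12.5 and 72.4 kb, and earlier than that of 2R, at 1854 kb. The last X peak ended at 21293278 and scored 32.56.

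In bins of 200 kb or less the X was no longer even, and its values lay inside or just under the range of the other arms. In bins of 200 kb the variance divided by the mean was 2.10 on the X and 2.09 to 2.82 on the autosomal arms. At 100 kb it was 1.98 on the X, below all 4 arms (2.06 to 2.71). At 50 kb it was 1.90 on the X, between 3L at 1.78 and the other arms at up to 2.46, and at 20 kb it was again inside their range. In larger bins it fell on the X, to 1.43 at 500 kb and 0.48 at 2 Mb, where only 9 X bins remain. No autosomal arm went under 1.61 at 500 kb or under 1.92 at 2 Mb.

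**Figure D3:**
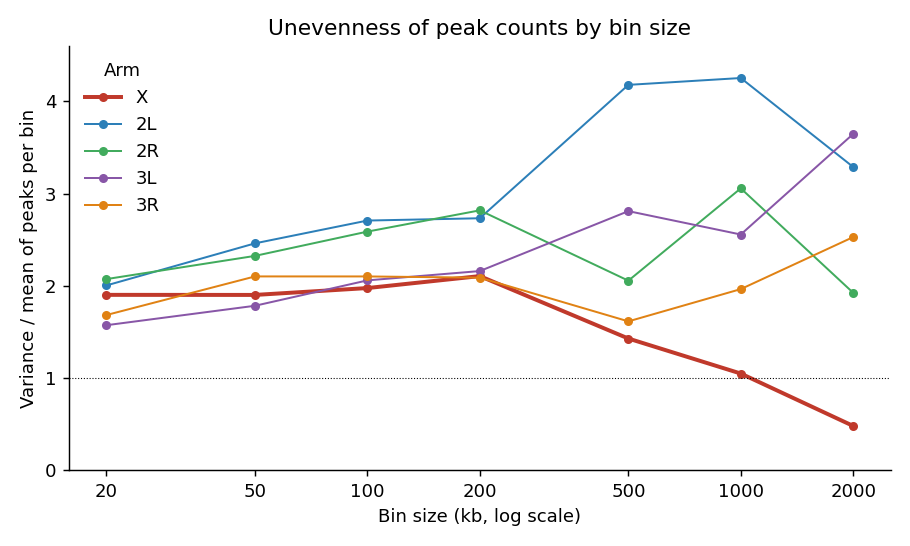
Variance divided by mean of peak counts per bin (vertical axis) against bin size in kb (log scale) for the X and the 4 autosomal arms; the dotted line at 1 is the average for independently scattered points. The X lies inside the range of the other arms at 20, 50 and 200 kb and just under it at 100 kb, then falls away, to 1.05 at 1000 kb, while the others stay at 1.61 or more.

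Close to 4 in 10 bins of 100 kb on the X held no CNC peak. Of 209 bins between the first and last peak, 81 were empty, or 38.8% (95% interval 32.1 to 45.7%), against 39.8% over the autosomal arms, which ran from 34.0% on 2R to 45.3% on 2L. Another 46 X bins held 1 peak. At the other end, 14 bins held 5 to 9 peaks and together 26.1% of all X peaks. Empty bins came in 50 separate runs, 31 of them a single bin, and no run was longer than 5 bins. Most runs of empty bins were thus short, although intervals longer than 100 kb made up 75.5% of the X span, against 71.9% of the autosomal spans.

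The longest empty stretch on the X measured 614 kb, from 14112027 to 14726209. Among peaks at or above the median score of the list the longest was 987 kb, and at or above the upper quartile 1677 kb. Only 2 peaks, with 18.64 the higher score, separated the 614 kb stretch from a further 364 kb without a peak, from 13739568 to 14103163. Both lie in the 1.89 Mb stretch between the strong peaks that start at 13737376 and 15634129. The second longest, 607 kb from 19781992 to 20389335, and the seventh, 370 kb from 20528596 to 20898720, lay on both sides of the isolated peak of score 216.07 and 1 other peak. The third measured 538 kb from 11819376 to 12357670. The next 2 measured 445 kb, from 829561 to 1274132, and 409 kb, from 7180530 to 7589552. None of these reached the longest stretches of 2L (985 kb) or 3L (711 kb), and the X value was close to those of 2R (613 kb) and 3R (599 kb). Intervals longer than 200 kb numbered 31 and made up 46.3% of the X span, against 47.0% of the autosomal spans.

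Neighbouring X peaks were often close. The median distance between the centres of neighbours was 21.5 kb (95% interval 13.9 to 32.5 kb), against 24.8 kb over the autosomal arms. The arms ran from 21.8 kb on 2R to 33.6 kb on 3L. The interquartile range on the X was 3.25 to 93.0 kb, and the mean distance was 67.6 kb. Centres within 5 kb were found for 88 of 309 X neighbours, or 28.5% (23.5 to 33.9%), and for 27.1% on the autosomal arms. This ratio of 1.05 turned to 0.79 among peaks at or above the median score of the list and to 0.60 at or above the upper quartile. By their edges, 56 X pairs, or 18.1% (14.0 to 22.9%), lay within 1 kb of each other. That share was 15.4% over the autosomal arms and ran from 13.0% on 3L to 17.3% on 2L, so the X was above all 4, by less than the counting error.

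**Figure D4:**
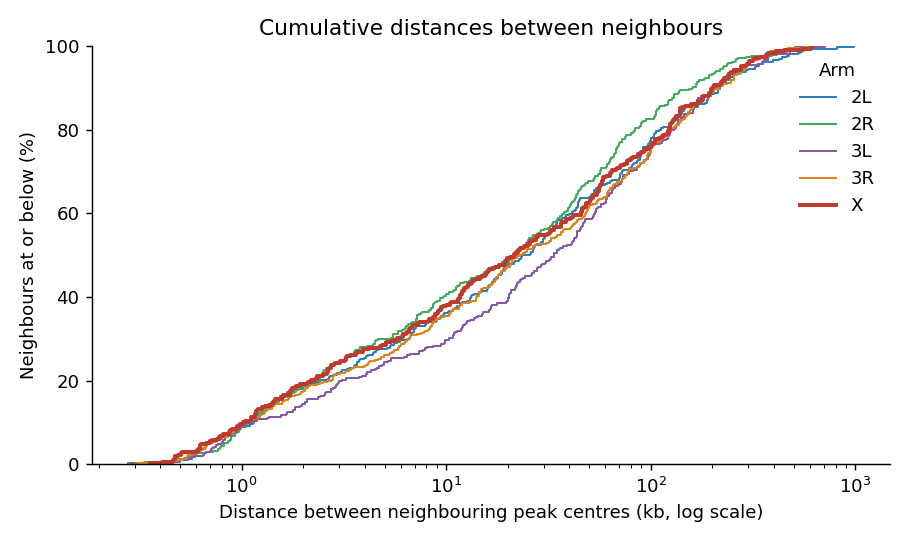
Share of neighbouring peaks (vertical axis, percent) whose centres lie at or below a given distance (horizontal axis, kb, log scale), for the X and each autosomal arm. The X curve crosses 50% at 21.5 kb and stays within the band of the other arms over most of its length, with 3L to the right of it between about 3 and 50 kb.

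The shortest gaps on the X were well under the length of a peak. The nearest pair, at 10259025 to 10259274 and 10259319 to 10259991, had 44 bases between them and scored 11.38 and 18.68. The next pairs had 51 bases between them at 3765563 to 3766494 and 55 at 17392516 to 17393175. In the fourth pair, 57 bases separated a 1788 bp peak of score 104.92, at 1963777 to 1965564, from a peak of score 10.22. The smallest gap on the autosomal arms was also 44 bases. Among the 56 X pairs within 1 kb the lower score had a median of 12.6 and the higher a median of 31.6. These medians were 13.1 and 32.5 in the 205 autosomal pairs.

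Most X peaks had company, but in small numbers. When neighbours with centres within 10 kb were taken as 1 group, the 310 peaks fell into 121 single peaks and 71 groups of 2 or more. Single peaks made up 39.0% of the X peaks (33.6 to 44.7%), against 45.2% of autosomal peaks (42.5 to 47.9%). The lowest autosomal arm was 2R at 40.2% and the highest 3L at 52.3%. Pairs were the usual form of grouping, with 49 pairs holding 31.6% of the X peaks, and pairs held 21.1 to 27.4% on the autosomal arms. Among the peaks of higher score alone, the share of single peaks on the X was no longer below that of the autosomal arms (1.06 times at or above the median of the list, and 1.07 times at or above the upper quartile).

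Large groups were absent from the X. No X group held more than 6 peaks, and 3L also stopped at 6. The largest groups held 16 peaks on 2L, 11 on 3R and 10 on 2R, and groups of 7 or more took in 7.80% of the peaks on 2L, 7.33% on 2R and 2.84% on 3R. Only 4 X groups reached 6 peaks and another 4 held 5.

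The 8 largest X groups differed in whether they contained a score above 100. At 19205353 to 19218245, 6 peaks within 12.9 kb included the sixth-ranked X peak, of score 257.07, and a 1810 bp peak of score 66.95, while the other 4 scored 8.55 to 17.17. The group at 3335190 to 3344814 had scores of 84.85 and 58.01 beside 4 peaks of 8.03 to 23.38. The remaining groups of 6 had lower highest scores. At 4824428 to 4830342, 6 peaks within 5.92 kb scored only 6.53 to 23.79, and at 6746669 to 6756803 the highest score was 31.48. Among the groups of 5, that at 7589553 to 7603798 had a peak of score 191.43 with the next at 20.39. The group at 20987962 to 20997537 had 155.97 with the next at 26.64, and the group at 21177199 to 21195117 had 133.06 with the next at 25.04. The group at 13285656 to 13301949 reached only 37.63. Groups with 1 score above 100 and groups with none thus both occurred. The group at 3335190 to 3344814 had none above 100, although 84.85 and 58.01 stood out in it.

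The most crowded bin of 100 kb on the X ran from 20900001 to 21000000 and held 9 peaks. It contained the group just named that starts at 20987962 and a group of 3 led by a 1766 bp peak of score 116.46 at 20914055 to 20915820. The next bin in number ran from 13200001 to 13300000 and held 8 peaks, none above 82.73.

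The highest peaks of the 71 X groups had a median score of 42.6 and a median length of 772 bp. The other 118 grouped peaks had medians of 14.3 and 360 bp, and 121 single peaks had medians of 18.5 and 445 bp. That the highest members outscored the other grouped peaks is by construction, since they were picked by score. The place of the single peaks between them says no more, since splitting grouped peaks by score puts the parts on both sides. All 189 grouped X peaks together had a median score of 19.5, close to that of the single peaks. The autosomal arms had the same order, with median scores of 47.5, 15.0 and 20.1. Only 1 of the 118 scored above 100, the peak of 103.77 beside the longest X peak, or 0.847%, against 2.76% (13 of 471) on the autosomal arms. On 3L the count was also low, at 0 of 91. A clear case is the group of 4 at 6234529 to 6239017. Its 3074 bp peak, the second longest on the X, scored 198.5, and the peaks flanking it, of 201, 218 and 203 bp, scored 7.79, 8.93 and 8.18. The first of these was 1 of 4 X peaks of 201 bp, the shortest length on the chromosome. Those at 8408728 and 13017321 stood alone, and that at 18593305 was in a pair.

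A larger share of high-scoring peaks had a near neighbour on the X than on any autosomal arm, by counts that were small. Of the 31 X peaks above 100, 12 had another peak within 1 kb of their edge, or 38.7%, against 39 of 147 on the autosomal arms, or 26.5%, with arms from 17.0% on 3R to 34.6% on 2L. The median gap from these X peaks to the nearest peak was 1.88 kb, against 3.46 to 9.96 kb on the 4 arms. Over all neighbours, whatever their score, pairs within 1 kb were also more frequent on the X, at 18.1% against 15.4%. The difference is therefore not shown to be particular to high-scoring peaks. Scores of neighbours within 1 kb tended to run in opposite directions on the X (Spearman's rho -0.31 over 56 pairs). The value was -0.24 on 3R, -0.22 on 3L and -0.19 on 2R, but 0.04 on 2L. Over the 205 autosomal pairs together it was -0.15. Pairs share peaks and one caller, and this is given as a description. Whether weak peaks next to strong ones are parts of the same bound region was not tested.

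Longer X peaks had higher scores, as on every arm. Spearman's rho of length and score over the 310 X peaks was 0.84, slightly above the 4 autosomal arms (0.80 to 0.82). Pearson's r was 0.76 on the X, inside the range of the arms (0.73 to 0.82). Both values come from the same caller, and the peaks are of 1 list. The scores of the X peaks were divided at the quartiles of the whole list, which gave 78, 84, 69 and 79 peaks from the lowest class to the highest. Median lengths were 259.5, 369, 510 and 1086 bp on the X, and 261, 363, 520.5 and 928 bp on the autosomal arms. The 3 lower classes thus differed by at most 10.5 bp, while in the highest class the X median (95% interval 909 to 1298 bp) lay above all 4 arms, which ran from 847 bp on 3L to 1080 bp on 2L. The autosomal median of that class was inside the X interval.

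**Figure D5:**
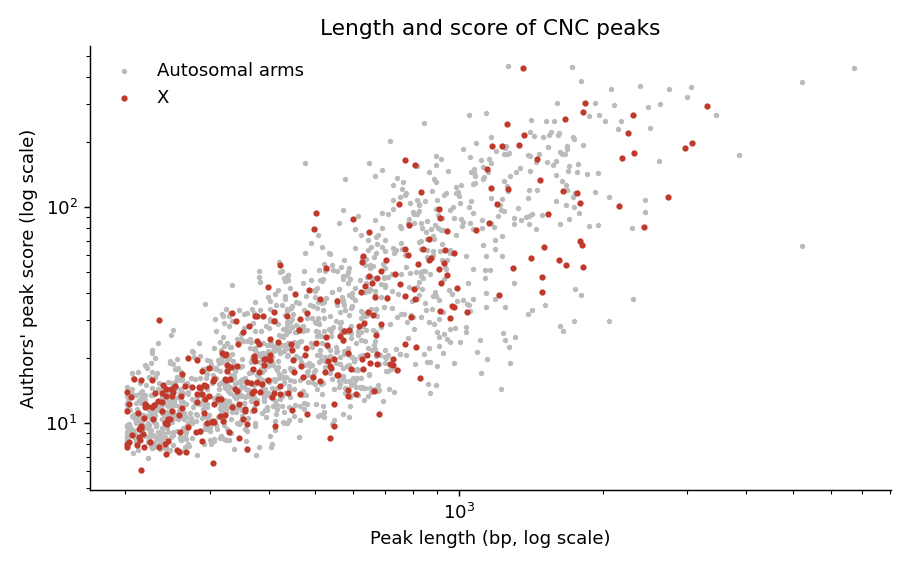
Score (vertical axis, log scale) against length in bp (horizontal axis, log scale) for the X peaks (red) and the autosomal arm peaks (grey), 1 point per peak. The X points follow the grey cloud from 201 bp upward and end at 3305 bp, short of the longest autosomal peak at 6723 bp.

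The longest X peaks did not all score highest. After the peaks of 3305 and 3074 bp came a 2972 bp peak at 5310980 to 5313951, with a score of 187.93. The fourth, at 18402439 to 18405180, was 2742 bp long with a score of 111.95, and no other peak lay within 98.6 kb. The fifth, 2436 bp at 18260629 to 18263064, scored 81.09. At the low end, the weakest peak of the X and of the whole list scored 6.06. It was a 216 bp peak at 16166306 to 16166521, 3.57 kb before the 2322 bp peak of score 177.52. The next lowest X scores were 6.53 at 4827525, 7.18 at 13541241, 7.31 at 17481995 and 7.35 at 20918156. The first and last of these 4 had a neighbour within 1 kb, and the other 2 had none within 88.8 kb. Weak peaks thus occurred both beside other peaks and far from them.

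By number, the X matched the autosomal arms. Over the span of its peaks it held 14.8 per Mb, against 14.5 over the 4 arms, which ran from 13.3 on 2L to 17.7 on 2R. Peaks covered 195 kb, or 0.93% of the X span, against 0.88% of the autosomal spans (0.73% on 3L to 1.11% on 2R). With peaks closer than 1 kb joined, 254 X peaks remained, at 12.2 per Mb, again inside the range of the arms (11.0 to 14.8). Repeated scores were as common on the X as elsewhere, with 40 X peaks (12.9%) sharing their score with another X peak, against 11.4 to 16.2% within single autosomal arms.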

How the data were processed

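The ChIP and input libraries were grouped by their titles. The values used are those of 1 peak list of the whole series. Per the file headers, it is on FlyBase release 5 and names MACS as its source; per the submitters' processing notes, BWA, MACS2 and CASAVA (versions 1.7.0.2 and 1.7.0.3) were used, with the build BDGP5. The deposited score is 1 value per peak. Its statistic, its threshold and the handling of replicates and inputs in peak calling were not given in the sources used here. Scores were therefore ranked, counted and differenced within the list, and no ratio of scores was formed; Pearson's r takes them as a linear scale and is given as a description. A stricter calling threshold or a merging of close peaks by the caller would change peak numbers, lengths and distances.

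Software was pandas 2.3.3, numpy 2.4.6 and matplotlib 3.10.9 on Python 3.11.15, with intervals from scipy 1.17.1. Centres are midpoints. Spans run from an arm's first to last peak. Intervals are exact binomial 95% intervals (Clopper-Pearson for shares, order statistics for medians). The counting functions were tested on simulated data. Named peaks are the 20 of highest score, the 5 longest, 3 shortest and 5 weakest, the ends, the 5 longest gaps, the largest groups and the nearest pairs; the fourth group of 5, the seventh and eighth gaps, and peaks beside named ones were added after their values were seen. The peaks, measures and settings were chosen with earlier results of these data known. The gene table at hand is of release 6 and was not used. Libraries cannot be compared, since the depth of each is unknown here.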

Additional observations from a re-analysis of the deposited data

How the results depend on the processing

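No paired analysis was possible because no value of a library is in the peak list, so replicates could not be left out either. Of 64 alternative values for 8 comparisons of the X with the autosomal arms, 55 stayed inside the exact interval of the reported value. That count is a weak check. Many of the settings only left out 1 autosomal arm, which cannot change the X value, and all of those stayed inside. For medians and shares, the interval covers counting error of the X value only, with the autosomal value held fixed. The 9 values outside all came from raising the score limit or joining peaks within 5 kb. The ratio of peaks per Mb, 1.03 as deposited, ran from 0.95 to 1.09 over 9 settings. With peaks at or above the median score of the list, the X minus autosomal median score went from -1.23 to 2.42, the ratio of shares within 5 kb from 1.05 to 0.79, and the ratio of single peaks from 0.86 to 1.06. At or above the upper quartile these were -9.96, 0.60 and 1.07, and the ratio of median lengths went from 0.98 to 1.17. With peaks within 5 kb joined, the score difference was 0.92 and the length ratio 1.12; no share within 5 kb can be had there. The ratio of sequence under peaks, 1.05, has no such interval. It was 1.04 and 1.17 under the stricter scores, 1.07 and 1.03 with peaks joined within 1 and 5 kb, 1.06 with spans from position 1, 1.13 without 2R and 1.00 without 3L. The 192 groups (single peaks included) became 121 and 71 under the stricter scores. Spearman's rho of length and score, 0.84, was 0.77 and 0.55 under them, and 0.80 and 0.77 with peaks joined within 1 and 5 kb. The variance over mean of X counts per 1 Mb, 1.05, was 1.20 and 1.14 with stricter scores, 0.76 and 0.69 with joined peaks, 1.06 with bins shifted by 500 kb, 1.43 and 0.48 with bins of 500 kb and 2 Mb, and 0.85 without the fullest bin. The causes were not tested. Settings for that measure and for single peaks were added after seeing the data. The limit that depth sets on weak peaks is unknown.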
